A study of Mus musculus with 24 samples.

Results

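Synaptic vesicles release transmitter when a vesicle SNARE of the VAMP family zips together with the plasma membrane SNAREs syntaxin and SNAP-25. Synaptotagmins couple this fusion to calcium, complexins hold the SNARE complex ready, Rab3 GTPases and synapsins control which vesicles reach the membrane, and SV2 proteins and synaptophysin are built into the vesicle membrane itself. Relatives of the same families serve other traffic, from Golgi transport to the insertion of new membrane. In a dorsal root ganglion (DRG) the cell bodies of sensory neurons make these proteins for their terminals in the spinal cord and in the periphery, and satellite glia, Schwann cells, macrophages, vessels and fibroblasts add RNA of their own.

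The members described here are all genes whose array name is *Syt*, *Stx*, *Vamp* or *Cplx* with a number, starts with *Sv2*, is *Rab3a* to *Rab3d*, or is *Snap25*, *Snap23*, *Snap91*, *Syn1* to *Syn3*, *Syp* or *Sypl*. This gave 58 of the 27398 gene names on the array, measured by 123 probes. Each gene is described by its brightest probe over the samples, and 19 members had a single probe.

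L4 and L5 DRGs of adult male mice (C57BL/6J) were measured on Agilent 4x44K arrays as log2 intensities, so that 1 unit is a doubling. *Nfil3* KO mice lack the transcriptional repressor NFIL3 in all tissues, since the floxed gene was removed with Cre under a CMV promoter, and their wildtype (WT) littermates carry no deletion. All mice had the sciatic nerve cut on one side and its endings joined. DRGs of the injured side were taken at day 2 or day 5, and control DRGs came from the non-injured side, which the titles number as day 0, and uninjured mice were not analysed here. There were 4 samples in each of the 6 groups of genotype and day, 24 in all. The labels call the tissue DRG neurons, but all 13 macrophage markers, all 8 satellite glia markers and all 8 Schwann cell markers measured were well above background in all 24 samples, as in whole ganglia.

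Some properties of the samples bear on what follows. The share of probes well above background ran from 54.5% to 72.3% over the samples, with no saturated spots. *Nfil3* itself exceeded background clearly in all 12 WT samples, with log2 intensities of 8.44 to 9.03 in WT control DRGs. In the KO control DRGs it was 2.94 to 4.37 in replicates 1 to 3 but 7.59 in replicate 4, the sample for which another label field gives day 5. It was also well above background in 2 of 4 KO samples at day 2, with a range of 3.03 to 6.22, and in 2 of 4 at day 5, with a range of 2.82 to 5.81. With this sample left out, 19 of the 21 members called at day 2 kept their call, and 27 of the 28 called at day 5. Each array carried a sample in the Cy3 and another in the Cy5 channel. On 6 arrays both were of the same day and on 6 they were not, which gives 12 samples of each kind, 2 in each group. Each same-day array paired a WT with a KO sample, and each of the others paired 2 samples of the same genotype.

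The first comparison asked how the lesion changed these genes, averaged over both genotypes. At day 2, 21 of 58 members passed the threshold (limma, Benjamini-Hochberg adjusted p under 0.05 over all 41174 probes), 6 higher and 15 lower than in control DRGs. At day 5 there were 28, 7 higher and 21 lower. The 7 that rose at day 5 were *Stx11*, *Syt4*, *Stx1a*, *Snap23*, *Stx5a*, *Rab3c* and *Vamp3*. The 21 that fell were *Cplx2*, *Syt3*, *Syt7*, *Syt13*, *Vamp1*, *Sv2b*, *Rab3b*, *Snap25*, *Rab3a*, *Syt2*, *Sv2a*, *Syn2*, *Syt9*, *Syt16*, *Syn3*, *Syt5*, *Syp*, *Syt11*, *Cplx1*, *Rab3d* and *Stx4a*.

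Over all gene names 12.9% fell and 9.39% rose at day 2, and 13% fell and 10.2% rose at day 5. The members lie on bright probes more often than other genes, since 50 of 58 were well above background in all 24 samples. Among the 14555 gene names of which this was true, 21.1% fell and 14.2% rose at day 2, and 21.9% fell and 15.4% rose at day 5. Of the 50 members, 28% fell and 12% rose at day 2, and 42% fell and 14% rose at day 5. The share of members that rose was therefore close to that of other genes at both days, and the share that fell was higher at day 5. The median change of the 58 members was -0.07 at day 2 and -0.15 at day 5, against -0.02 and -0.03 over all gene names.

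All 8 lesioned samples lay outside the range of all 8 control samples for 9 members at day 2, where this held for 6.75% of gene names, and for 15 members at day 5, where it held for 11.9%. Both shares are over all 27398 gene names, of which 14555 were well above background throughout, against 50 of the 58 members. In both days 17 members passed in the same direction, 4 passed at day 2 and not at day 5, and 11 at day 5 and not at day 2. Among the 4 were *Syt12*, which was higher, and *Vamp7* and *Syt15*, which were lower. The calls of these genes depended on the fit, as given with each gene. Passing at one day alone is not a difference between the days. Within each of the 3 slides all called members kept their direction, except *Stx5a* and *Syt15* at day 2 on slide 1, which holds 1 day 2 sample. They were called on the samples of these same slides together, which favours a shared direction. The genotypes of lesioned and control samples were not matched on every slide. Bulk RNA does not tell fewer cells of a type from less RNA per cell.

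**Figure D1:**
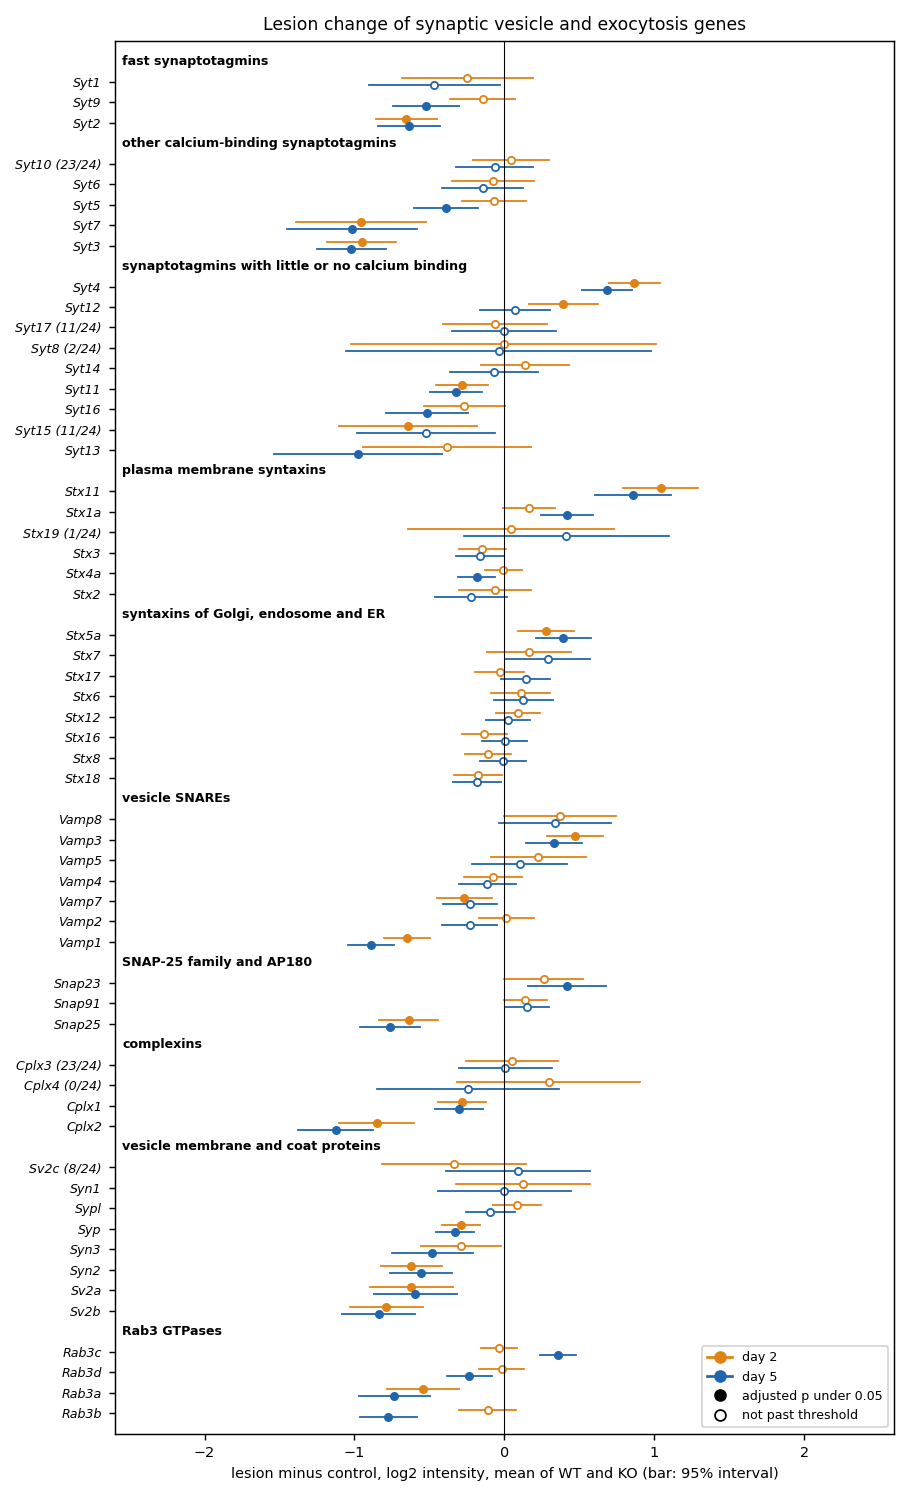
Lesion minus control in log2 intensity for the members reported by name, grouped by role, at day 2 (orange) and day 5 (blue), averaged over WT and KO mice with 95% intervals from limma. Filled points passed an adjusted p of 0.05, and the number after a name gives the samples of 24 in which the probe was well above background where that was not all of them. Most filled points lie left of 0, with *Syt4* and *Stx11* farthest to the right at both days.

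The neuronal SNAREs did not move together. *Snap25*, whose protein is the palmitoylated plasma membrane SNARE of neurons, fell. The WT samples gave log2 intensities for *Snap25* of 14.43, 14.36, 14.47 and 14.16 (control), 13.93, 13.88, 13.69 and 13.49 (day 2) and 13.58, 13.63, 13.61 and 13.65 (day 5). The KO samples gave 14.52, 14.54, 14.23 and 14.20 (control), 13.39, 13.78, 13.81 and 13.80 (day 2) and 13.87, 13.24, 13.58 and 13.62 (day 5). No lesioned sample reached the lowest control. The change was -0.64 at day 2 (SE 0.09, adjusted p = 4.93e-05) and -0.76 at day 5 (adjusted p = 4.62e-06), a 1.7-fold decrease. The 2 other *Snap25* probes gave -0.84 and -0.78 at day 5, and both passed.

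*Snap23*, the widely expressed relative of *Snap25*, rose at day 5. For *Snap23* the WT log2 intensities were 7.31, 7.11, 7.27 and 7.32 in control, 7.41, 7.71, 7.90 and 7.11 in day 2 and 7.70, 7.92, 7.50 and 7.99 in day 5 DRGs. The KO values were 7.34, 7.34, 7.05 and 7.12 in control, 7.63, 6.99, 7.37 and 7.81 in day 2 and 7.61, 7.78, 7.37 and 7.32 in day 5 DRGs. The day 2 samples spread over the control range and beyond it, and at day 5 the lowest KO sample fell within the control range. The limma change at day 5 was 0.42 (SE 0.12, adjusted p = 0.0191), and the 2 other probes, with 0.50 and 0.32, passed too. *Snap91*, the clathrin assembly protein AP180, had 0.14 and 0.15 and passed at neither day.

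*Stx1a*, a plasma membrane partner of *Snap25*, rose. The array annotation (mm9) places its probe on chromosome 5, start 135526477 and end 135526536. WT control DRGs had *Stx1a* at 9.21, 9.17, 9.09 and 9.26 on the log2 scale, those of day 2 at 9.40, 9.11, 9.09 and 9.52, and those of day 5 at 9.77, 9.55, 9.81 and 9.52. KO control DRGs had 9.03, 9.13, 9.30 and 9.20, those of day 2 had 9.43, 9.34, 9.55 and 9.26, and those of day 5 had 9.29, 9.53, 9.79 and 9.47. All day 5 samples but 1 KO sample were above the highest control. The limma change at day 5 was 0.42 (SE 0.08, adjusted p = 7.04e-04), and at day 2 it was 0.16, which did not pass (adjusted p = 0.184).

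The *Stx1a* promoter holds a short CRE, the core of the site that CREB binds and that NFIL3, a related bZIP factor, can compete for. It is shown as an example chosen after the changes were seen, and any part of the site in them was not tested. The letters TGACG were searched on both strands in the RefSeq promoters of GRCm38.p6, 250 bases before to 50 after the start, which the table gives for 45 of the 58 members. They occur in 14 of these 45 (31.1%) and in 23% of all 27025 genes of the table. Of the 14, *Stx1a* and *Stx5a* rose at day 5, and *Cplx1*, *Rab3a*, *Rab3b*, *Rab3d*, *Stx4a* and *Syt2* fell. The others did not pass at day 5 by their brightest probe. The window lies at chr5:135023308-135023372 on the plus strand, with the short CRE in capitals 144 bases before the start.
Stx1a: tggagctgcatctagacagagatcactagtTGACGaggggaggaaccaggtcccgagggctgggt

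*Stx11*, a syntaxin best known from the granule release of cytotoxic lymphocytes and found in other immune cells, had the largest rise at day 5 among the members. *Stx11* measured 5.85, 5.75, 5.40 and 5.71 (log2 intensity) in WT controls, 6.58, 6.65, 6.72 and 7.17 in WT day 2 and 6.47, 6.39, 6.51 and 6.60 in WT day 5 samples. KO controls measured 5.94, 5.58, 5.71 and 5.31, KO day 2 samples 6.53, 6.41, 6.55 and 6.98 and KO day 5 samples 6.10, 6.47, 6.74 and 6.81. Every lesioned sample was above every control. Lesion minus control was 1.04 at day 2 (SE 0.12, adjusted p = 2.60e-06), a 2.06-fold increase, and 0.86 at day 5 (adjusted p = 2.13e-05).

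Macrophage markers rose too, with a larger median change at day 5 than at day 2. Of 13 markers 7 passed at day 2 and all 13 at day 5, with medians of 0.66 and 1.69. The mean log2 intensity of the list was 7.76 to 8.46 in WT control DRGs, 8.53 to 9.09 at day 2 and 9.67 to 9.98 at day 5, and 7.78 to 8.37, 8.05 to 8.94 and 9.47 to 9.81 in KO mice. Their part in the rise of *Stx11*, *Snap23* and *Vamp3* was not tested. The largest macrophage change at day 5 was 2.05 (*C1qa*), and *Stx11* had -0.19 for day 5 minus day 2 (adjusted p = 0.518).

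The other plasma membrane syntaxins moved little. *Stx4a*, the syntaxin of constitutive and regulated secretion in many cells, fell by 0.18 at day 5 (adjusted p = 0.0282), a call that its second probe did not share. This call was lost in 11 of 39 alternative fits, among them the one without KO control replicate 4. *Stx2* and *Stx3* did not pass at either day, but the second brightest *Stx3* probe fell by 0.39 at day 5 (adjusted p = 0.0253). *Stx19* cleared background in only 1 of 24 samples. Of the 8 syntaxins of the Golgi, endosomes and endoplasmic reticulum only *Stx5a*, of Golgi transport, passed, with 0.28 at day 2 (adjusted p = 0.0308) and 0.39 at day 5 (adjusted p = 0.00235). The changes of *Stx6*, *Stx7*, *Stx8*, *Stx12*, *Stx16*, *Stx17* and *Stx18* lay between -0.18 and 0.29 at both days, and only a second probe of *Stx17* passed (-0.34 at day 2, adjusted p = 0.00524).

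Among the vesicle SNAREs, *Vamp1* fell more clearly than any other member by adjusted p at day 5. *Vamp1* and *Vamp2* are the synaptobrevins of synaptic vesicles, *Vamp1* being prominent in spinal cord and brainstem. The WT samples gave log2 intensities for *Vamp1* of 13.32, 13.43, 13.44 and 12.93 (control), 12.78, 12.72, 12.66 and 12.85 (day 2) and 12.35, 12.41, 12.38 and 12.46 (day 5). The KO samples gave 13.23, 13.60, 13.37 and 13.41 (control), 12.56, 12.70, 12.59 and 12.66 (day 2) and 12.64, 12.40, 12.38 and 12.57 (day 5). Control and lesioned samples did not overlap at either day. The fitted change was -0.65 at day 2 (SE 0.07, adjusted p = 1.77e-06) and -0.89 at day 5 (adjusted p = 1.65e-08), a 1.85-fold decrease. This probe is on chromosome 6, start 125171818 and end 125171877 (mm9). The 2 dimmer *Vamp1* probes did not pass, with -0.02 and 0.30 at day 5, and the mean over the 3 probes was -0.20 at day 5 and did not pass.

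*Vamp2* changed less, and its call at day 5 depended on the fit. For *Vamp2* the WT log2 intensities were 12.71, 12.73, 12.76 and 12.87 in control, 12.98, 12.84, 12.50 and 12.74 in day 2 and 12.35, 12.77, 12.36 and 12.66 in day 5 DRGs. The KO values were 12.42, 12.94, 12.68 and 12.59 in control, 12.62, 12.80, 12.56 and 12.75 in day 2 and 12.38, 12.63, 12.26 and 12.43 in day 5 DRGs. The groups overlapped at both days. The change of 0.01 at day 2 and -0.23 at day 5 (SE 0.09, adjusted p = 0.0677) did not pass, and the 2 dimmer probes gave 0.19 and 0.21 at day 2, which did. With the slide as a block the day 5 change was -0.20 (adjusted p = 0.0272) and with the replicate block -0.23 (adjusted p = 0.0297), and it also passed with normexp, without background correction, with the filter on dim probes, and without WT day 5 replicate 2, KO control replicate 1 or KO day 5 replicate 2.

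*Vamp3* (cellubrevin), which serves recycling endosomes in most cells, rose. Its log2 intensity was between 6.90 and 7.33 in control DRGs, 7.25 and 7.89 at day 2 and 7.32 and 7.63 at day 5, a change of 0.47 (adjusted p = 6.59e-04) and 0.33 (adjusted p = 0.0104). *Vamp7*, a SNARE of late endosomes and of neurite outgrowth, fell by 0.27 at day 2 (adjusted p = 0.0315) and had -0.23 at day 5 (adjusted p = 0.0645). With the slide as a block the day 2 change did not pass (-0.24, adjusted p = 0.0523) and the day 5 change did (-0.25, adjusted p = 0.0343), and the day 2 call was lost in 11 of 39 alternative fits. *Vamp4*, *Vamp5* and *Vamp8* passed at neither day by their brightest probe, although a second probe of *Vamp8* rose by 0.48 at day 5 (adjusted p = 0.00993).

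*Snap25* and *Vamp1* fell while *Snap23* and *Vamp3* of the same families rose. As a difference within a sample, relative to the mean of the controls, *Snap25* minus *Snap23* lay between -0.29 and 0.12 in the controls, -1.37 and -0.33 at day 2, and -1.67 and -0.83 at day 5. For *Vamp1* minus *Vamp3* the ranges were -0.37 to 0.46, -1.49 to -0.81 and -1.52 to -0.95. The lesioned samples lay below all controls for both pairs. The pairs were chosen after the values were seen and no test was made of them.

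**Figure D2:**
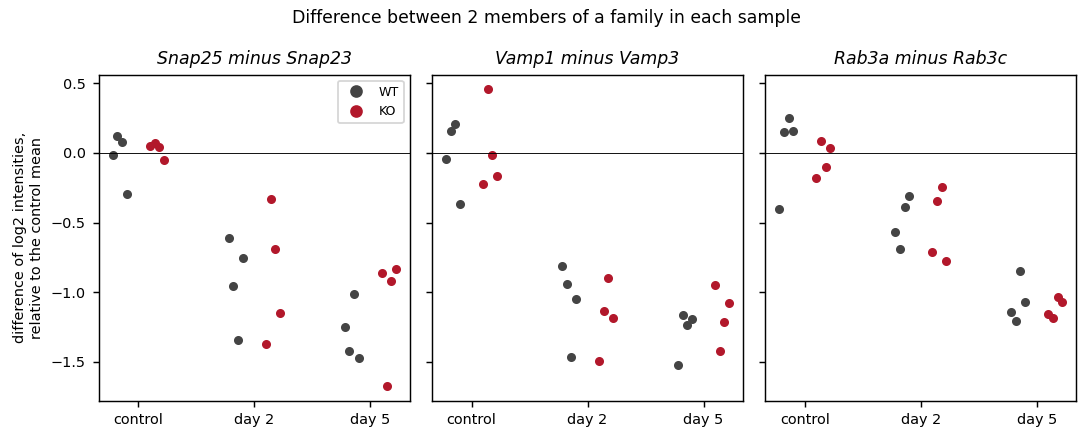
Difference of log2 intensities between 2 genes of a family in each of the 24 samples, relative to the mean of the 8 controls, for control, day 2 and day 5 DRGs of WT (grey) and KO (red) mice. The day 5 samples lie below all controls in all 3 panels, and at day 2 the *Rab3a* minus *Rab3c* values of -0.77 to -0.25 reach the lower end of the control range.

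The calcium sensors of fast release are *Syt1*, *Syt2* and *Syt9*. *Syt1* did not pass at either day by its brightest probe. WT control DRGs had *Syt1* at 12.75, 12.80, 12.17 and 12.75 on the log2 scale, those of day 2 at 12.63, 12.14, 11.39 and 12.60, and those of day 5 at 12.25, 12.09, 11.67 and 11.91. KO control DRGs had 12.90, 12.30, 12.54 and 12.49, those of day 2 had 11.72, 13.22, 13.04 and 11.98, and those of day 5 had 12.17, 12.35, 12.31 and 12.21. The day 2 samples, from 11.39 to 13.22, lay on both sides of the controls. The limma change at day 5 was -0.47 (SE 0.21, adjusted p = 0.128), while 3 of the 5 other probes, with -0.58, -0.56 and -0.50, passed. *Syt2*, a fast form best known from hindbrain and neuromuscular synapses, fell by 0.65 at day 2 (adjusted p = 5.99e-05) and by 0.64 at day 5 (adjusted p = 6.12e-05), from 6.56 to 6.999 in control DRGs to 5.96 to 6.48 at day 5. *Syt9* fell at day 5, by 0.52 (adjusted p = 7.82e-04), and had -0.15 at day 2, which did not pass. Its day 5 minus day 2 did not pass either (adjusted p = 0.0536).

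Among the sensors with high calcium affinity, *Syt3* and *Syt7* fell most. *Syt3* measured 8.11, 8.61, 8.51 and 8.12 (log2 intensity) in WT controls, 7.54, 7.29, 7.27 and 7.53 in WT day 2 and 7.28, 7.48, 7.35 and 7.21 in WT day 5 samples. KO controls measured 8.02, 8.71, 8.16 and 8.49, KO day 2 samples 7.38, 7.73, 7.15 and 7.22 and KO day 5 samples 7.41, 7.43, 7.15 and 7.25. No lesioned sample reached a control. On average over genotypes it changed by -0.95 at day 2 (SE 0.11, adjusted p = 2.52e-06) and -1.02 at day 5 (adjusted p = 7.49e-07), a 2.03-fold decrease.

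*Syt7*, the sensor of slow release and of lysosome fusion in membrane repair, fell as far but with more spread. The WT samples gave log2 intensities for *Syt7* of 12.004, 11.64, 11.94 and 12.18 (control), 11.14, 10.61, 10.35 and 11.63 (day 2) and 10.83, 10.92, 10.99 and 10.90 (day 5). The KO samples gave 11.98, 11.71, 12.38 and 11.91 (control), 10.19, 11.34, 12.02 and 10.80 (day 2) and 10.96, 10.83, 11.21 and 10.96 (day 5). The day 5 samples lay below all controls and the day 2 samples did not. By limma the change was -0.96 at day 2 (SE 0.21, adjusted p = 0.00199) and -1.02 at day 5 (adjusted p = 9.48e-04), and the 3 dimmer probes gave -0.89 to -0.93 at day 5 and passed. *Syt5* fell at day 5, by 0.39 (adjusted p = 0.00771). *Syt6* and *Syt10* did not pass, although a dim second *Syt10* probe, well above background in 8 samples, fell by 0.71 at day 5.

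*Syt4* had the smallest adjusted p of all members at day 2. Its protein binds little calcium, sits on dense-core and other large vesicles, and its gene is known to respond to activity. For *Syt4* the WT log2 intensities were 10.95, 10.89, 10.74 and 10.93 in control, 11.80, 11.997, 11.46 and 11.55 in day 2 and 11.49, 11.65, 11.42 and 11.51 in day 5 DRGs. The KO values were 10.98, 10.81, 10.77 and 10.73 in control, 11.67, 11.82, 11.53 and 11.90 in day 2 and 11.72, 11.62, 11.42 and 11.45 in day 5 DRGs. Every lesioned sample was above every control. The change was 0.87 at day 2 (SE 0.08, adjusted p = 1.29e-07), a 1.82-fold increase, and 0.68 at day 5 (adjusted p = 2.28e-06). The second probe gave 0.79 and 0.55, and both passed.

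The other synaptotagmins that bind little or no calcium went different ways. WT control DRGs had *Syt13* at 6.53, 6.27, 6.78 and 7.20 on the log2 scale, those of day 2 at 6.85, 5.22, 5.72 and 6.80, and those of day 5 at 5.46, 5.65, 5.82 and 5.52. KO control DRGs had 6.84, 6.61, 6.96 and 6.72, those of day 2 had 5.77, 7.13, 7.56 and 5.83, and those of day 5 had 5.97, 5.83, 6.41 and 5.43. The day 2 samples fell into 4 low and 4 high values. Lesion minus control was -0.38 at day 2 (SE 0.27, adjusted p = 0.364) and -0.98 at day 5 (adjusted p = 0.0105), and the dim second probe, with 0.30, did not pass. *Syt11*, known from membrane traffic in neurons, fell by 0.28 at day 2 (adjusted p = 0.0190) and by 0.32 at day 5 (adjusted p = 0.00668), a call its second probe did not share. *Syt16* fell by 0.52 at day 5 (adjusted p = 0.00591). *Syt12* rose at day 2, by 0.39 (adjusted p = 0.0140), and had 0.07 at day 5, and day 5 minus day 2 did not pass (adjusted p = 0.137). Its day 2 call was lost in 3 of 39 alternative fits, with the probes averaged and on each kind of array alone. *Syt15* cleared background in 11 of 24 samples, 7 of them control DRGs, and fell by 0.64 at day 2 (adjusted p = 0.0415). This call was lost in 17 of 39 alternative fits, among them the array as a random block and the replicate block, and on different-day arrays the change was -0.08 (adjusted p = 0.900). *Syt14* did not pass, and *Syt8* and *Syt17* were well above background in 2 and 11 samples and did not pass.

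At day 2 the values of several synaptotagmins and of *Vamp8* differed between the kinds of array. On arrays that carried 2 day 2 samples *Syt7* had 10.19 to 10.80 at day 2, against 11.14 to 12.02 on the others. For *Syt13* these ranges were 5.22 to 5.83 and 6.80 to 7.56, and for *Syt1* 11.39 to 12.14 and 12.60 to 13.22. *Vamp8* had 10.13 to 10.62 and 9.45 to 9.84. Fitted on the 12 samples of same-day arrays alone, the change at day 2 was -1.52 for *Syt7* and -1.09 for *Syt13*, and on the 12 other samples -0.39 and 0.32. For *Vamp8* these limma changes were 0.80, which passed (adjusted p = 0.00956), and -0.05, which did not. All 21 members called at day 2 kept their direction on both kinds of arrays, but 20 of 21 (95.2%) had the larger change on same-day arrays, as did 80.1% of all genes called. Their median size was 0.77 on same-day and 0.39 on other arrays. At day 2, 19 members passed on same-day arrays alone, 15 of them among the 21, where 13.9% of gene names did, and 2 on the other arrays, where 3.43% did. At day 5 the larger change was on same-day arrays for 12 of 28 members, with medians of 0.54 and 0.58. At day 5, 14 members passed on same-day arrays, where 9.85% of gene names did, and 18 on the others, where 10.75% did. Pairing by day cannot be told apart from pairing by genotype on these arrays, and the cause was not tested.

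Complexins bind the assembled SNARE complex. *Cplx2* had the largest fall of all members called at day 5. *Cplx2* measured 13.24, 13.20, 13.47 and 13.24 (log2 intensity) in WT controls, 12.65, 12.41, 12.25 and 12.58 in WT day 2 and 12.12, 12.14, 12.16 and 12.21 in WT day 5 samples. KO controls measured 12.94, 13.41, 13.44 and 13.30, KO day 2 samples 11.86, 12.65, 12.84 and 12.20 and KO day 5 samples 12.38, 12.10, 12.24 and 11.90. The lesioned samples lay below all controls at both days. The fitted change was -0.85 at day 2 (SE 0.12, adjusted p = 2.55e-05) and -1.13 at day 5 (adjusted p = 5.79e-07), a 2.18-fold decrease, and the 3 other probes gave -0.69, -0.86 and -1.04 at day 5 and passed.

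*Cplx1* fell less. The WT samples gave log2 intensities for *Cplx1* of 14.52, 14.63, 14.47 and 14.28 (control), 14.44, 14.27, 14.07 and 14.16 (day 2) and 14.16, 14.25, 14.06 and 14.12 (day 5). The KO samples gave 14.35, 14.78, 14.36 and 14.53 (control), 14.18, 14.32, 13.99 and 14.26 (day 2) and 14.25, 14.36, 14.12 and 14.20 (day 5). The day 5 samples overlapped the lowest control only at their upper end. On average over genotypes it changed by -0.28 at day 2 (adjusted p = 0.0119) and -0.30 at day 5 (SE 0.08, adjusted p = 0.00654). *Cplx3*, the form of ribbon synapses in the retina, did not pass, and *Cplx4* never cleared background.

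Of the 8 proteins of the vesicle membrane and coat, 4 fell at day 2 and 5 at day 5. SV2 proteins are transporter-like glycoproteins of the vesicle, and *Sv2b* fell most. For *Sv2b* the WT log2 intensities were 11.07, 11.31, 11.14 and 10.80 in control, 10.46, 10.25, 10.33 and 10.62 in day 2 and 10.08, 10.23, 10.37 and 10.33 in day 5 DRGs. The KO values were 11.44, 11.18, 11.22 and 11.18 in control, 9.94, 10.59, 10.78 and 10.07 in day 2 and 10.73, 10.22, 10.23 and 10.44 in day 5 DRGs. No lesioned sample reached a control. By limma the change was -0.79 at day 2 (SE 0.12, adjusted p = 4.76e-05) and -0.84 at day 5 (adjusted p = 1.79e-05).

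*Sv2a* is the target of the drug levetiracetam. WT control DRGs had *Sv2a* at 8.58, 8.38, 8.52 and 8.23 on the log2 scale, those of day 2 at 7.75, 7.33, 8.05 and 8.23, and those of day 5 at 7.76, 7.55, 8.28 and 7.91. KO control DRGs had 8.50, 8.55, 8.79 and 8.58, those of day 2 had 7.62, 7.78, 8.39 and 7.99, and those of day 5 had 7.85, 7.81, 8.12 and 8.09. WT lesioned samples reached the lowest WT control at both days, and KO lesioned samples lay below all KO controls. The change was -0.62 at day 2 (SE 0.13, adjusted p = 0.00175) and -0.60 at day 5 (adjusted p = 0.00213), and the dimmer second probe, with -0.32 at day 5, did not pass.

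*Sv2c* was at the edge of detection, well above background in 8 of 24 samples. *Sv2c* measured 4.54, 4.52, 4.16 and 3.74 (log2 intensity) in WT controls, 3.31, 4.10, 2.69 and 4.10 in WT day 2 and 4.25, 4.22, 4.28 and 4.04 in WT day 5 samples. KO controls measured 4.58, 3.68, 3.62 and 4.32, KO day 2 samples 4.16, 3.11, 4.28 and 4.73 and KO day 5 samples 4.49, 4.33, 4.18 and 4.07. It did not pass at either day, and at this signal no change was detectable.

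*Syp*, which encodes synaptophysin, the standard marker of synaptic vesicles, fell by a small amount with little spread. The WT samples gave log2 intensities for *Syp* of 11.58, 11.63, 11.68 and 11.54 (control), 11.48, 11.20, 11.27 and 11.33 (day 2) and 11.33, 11.20, 11.41 and 11.35 (day 5). The KO samples gave 11.63, 11.78, 11.70 and 11.58 (control), 11.24, 11.47, 11.53 and 11.28 (day 2) and 11.30, 11.18, 11.45 and 11.28 (day 5). The groups did not overlap at either day. Lesion minus control was -0.29 at day 2 (SE 0.06, adjusted p = 0.00163) and -0.33 at day 5 (adjusted p = 4.31e-04). The day 2 change was -0.44 on same-day arrays alone, and -0.15 on the other arrays, where it did not pass (limma, adjusted p = 0.464). *Sypl*, its relative outside neurons, had 0.08 and -0.09 and did not pass.

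Synapsins tether vesicles in the reserve pool. *Syn2* fell by 0.62 at day 2 (adjusted p = 1.04e-04) and by 0.56 at day 5 (adjusted p = 2.54e-04), and its 2 other probes passed at both days. *Syn3* fell by 0.48 at day 5 (adjusted p = 0.00884), a call that none of its 5 other probes shared.

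*Syn1* differed by slide more than by group. For *Syn1* the WT log2 intensities were 11.26, 11.20, 12.21 and 12.31 in control, 12.26, 12.29, 11.59 and 11.43 in day 2 and 11.45, 12.27, 11.51 and 12.37 in day 5 DRGs. The KO values were 11.34, 12.20, 11.40 and 11.47 in control, 11.57, 11.48, 11.41 and 12.36 in day 2 and 11.46, 11.38, 11.47 and 11.48 in day 5 DRGs. The 8 samples of slide 3 had 12.20 to 12.37 and the 16 samples of slides 1 and 2 had 11.20 to 11.59. The change was 0.12 at day 2 and 0.00 at day 5 (adjusted p = 0.756 and 1), and with the slide as a block 0.12 and 0.11, neither of which passed. The second probe had no such step and fell at day 2, by 0.24 (adjusted p = 0.0311).

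*Syn1* was the only one of the 45 members with a promoter in the table that held a full CRE. The letters TGACGTCA, which contain the short CRE, occur in 2.03% of the 27025 genes. The palindromic NFIL3 site, TTACGTAA, occurs in none of the 45 members and in 0.126% of genes, and its variant TTATGTAA in none of the members and in 1.11% of genes. No match says only that these letters are not in this window. The *Syn1* window lies at chrX:20921040-20921107 on the minus strand (GRCm38.p6), with the CRE in capitals 159 bases before the start.
Syn1: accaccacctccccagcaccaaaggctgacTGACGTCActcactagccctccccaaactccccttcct

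**Figure D3:**
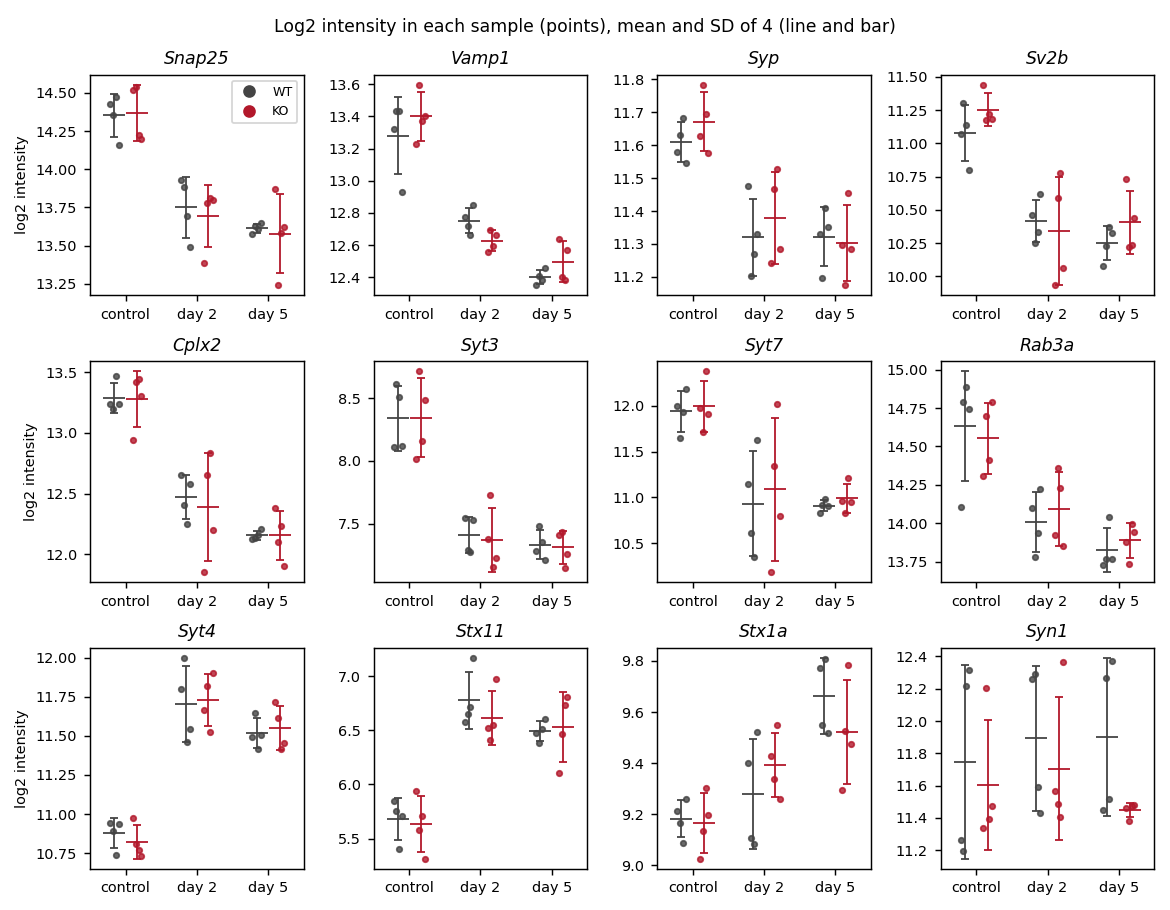
Log2 intensity of 12 members in each sample of control, day 2 and day 5 DRGs of WT (grey) and KO (red) mice, with the mean and SD of the 4 samples in a group. The scales differ between panels. *Snap25*, *Vamp1*, *Syp*, *Sv2b*, *Cplx2* and *Syt3* lie lower in all lesioned samples, *Syt4* and *Stx11* higher, and *Syn1* splits into 2 levels within groups.

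The Rab3 GTPases bring vesicles to the release site, and their genes went in different directions and at different times. *Rab3a* is the main form of neurons. WT control DRGs had *Rab3a* at 14.11, 14.79, 14.89 and 14.75 on the log2 scale, those of day 2 at 14.10, 13.78, 13.93 and 14.22, and those of day 5 at 13.73, 13.77, 14.04 and 13.77. KO control DRGs had 14.31, 14.70, 14.41 and 14.79, those of day 2 had 13.92, 14.36, 14.23 and 13.85, and those of day 5 had 13.88, 13.73, 13.996 and 13.95. All day 5 samples lay below all controls. The fitted change was -0.54 at day 2 (SE 0.11, adjusted p = 0.00157) and -0.73 at day 5 (adjusted p = 6.29e-05), a 1.66-fold decrease.

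*Rab3b* fell late. *Rab3b* measured 8.50, 8.74, 8.97 and 9.01 (log2 intensity) in WT controls, 8.75, 8.37, 8.55 and 8.66 in WT day 2 and 7.83, 8.07, 8.002 and 7.98 in WT day 5 samples. KO controls measured 8.45, 8.85, 8.57 and 8.87, KO day 2 samples 8.78, 8.74, 8.84 and 8.38 and KO day 5 samples 7.999, 8.02, 7.87 and 7.98. The day 2 samples overlapped the controls, and the day 5 samples lay below all others. On average over genotypes it changed by -0.11 at day 2 (adjusted p = 0.451) and -0.78 at day 5 (SE 0.09, adjusted p = 2.19e-06), and its second probe gave -0.81 at day 5.

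*Rab3c* rose late. The WT samples gave log2 intensities for *Rab3c* of 8.17, 8.30, 8.29 and 8.25 (control), 8.33, 8.13, 7.98 and 8.19 (day 2) and 8.54, 8.63, 8.55 and 8.50 (day 5). The KO samples gave 8.15, 8.27, 8.18 and 8.41 (control), 8.29, 8.37, 8.14 and 8.29 (day 2) and 8.69, 8.58, 8.69 and 8.67 (day 5). All 8 day 5 samples were above all others. The limma change at day 5 was 0.35 (SE 0.06, adjusted p = 9.91e-05), and its second probe gave 0.36. *Rab3d*, the form of secretory glands and other secretory cells, fell by 0.23 at day 5 (adjusted p = 0.0224).

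*Rab3b* and *Rab3c* were the only members called between day 5 and day 2, with -0.67 (adjusted p = 1.66e-04) and 0.39 (adjusted p = 3.48e-04). This is 1 of 58 in each direction, where 1.01% of gene names were lower and 2.32% higher at day 5. With normexp, without background correction and with the slide as a block 5 passed, and with processed signals 4. On same-day arrays alone none passed and on the other arrays 5 did.

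A *Rab3a* promoter, of 2 that the table gives for this gene, also holds a short CRE, in reverse as CGTCA. It is shown as an example from a member that fell, and any part of the site in the change was not tested. The window lies at chr8:70754637-70754701 on the plus strand (GRCm38.p6), and the match begins 36 bases before the start.
Rab3a: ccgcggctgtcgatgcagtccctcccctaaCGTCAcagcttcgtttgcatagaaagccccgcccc

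Genes around the vesicle cycle were counted by the same rule, and their counts are to be read beside the 21.1% lower and 14.2% higher at day 2 and the 21.9% lower and 15.4% higher at day 5 among all genes well above background throughout. The lists also hold dimmer genes, since 35 of the 44, 42 of the 45 and 13 of the 15 genes below were well above background throughout. Of 44 regulators of SNAREs and of the active zone, 4 rose and 14 fell at day 2, and 5 rose and 15 fell at day 5, with medians of -0.12 and -0.16. The lowest at day 5 were *Rab27b*, a GTPase of vesicle docking, with -1.30 (adjusted p = 2.29e-04) and *Rph3a*, rabphilin, an effector of Rab3, with -1.26 (adjusted p = 4.98e-07). The highest were *Rab3il1*, an exchange factor, with 0.50 (adjusted p = 0.0158) and *Erc2*, an active zone scaffold, with 0.48 (adjusted p = 1.17e-04).

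Of 45 vesicle proteins, transporters and recycling factors, 5 rose and 12 fell at day 2, and 8 rose and 12 fell at day 5, with medians of -0.13 and -0.09. Their shares at day 5, 26.7% lower and 17.8% higher, were near those of all such genes. *Synpr*, which encodes synaptoporin, a relative of synaptophysin, had -1.03 at day 5 (adjusted p = 9.88e-05) and *Dnm3*, a dynamin, -0.67 (adjusted p = 2.15e-04). *Cltb*, a clathrin light chain, had 0.72 (adjusted p = 5.77e-07) and *Sncb*, beta-synuclein, 0.42 (adjusted p = 0.00371).

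Of 15 genes of dense-core vesicles on the array, 3 rose and 8 fell at day 2, and 3 rose and 9 fell at day 5, with medians of -0.22 and -0.29. The lowest at day 5 were the secreted pentraxin *Nptx1* with -1.11 (adjusted p = 1.82e-04) and the granin *Scg2* with -0.73 (adjusted p = 0.00311). The highest were the neurotrophin *Bdnf* with 0.44 (adjusted p = 0.00173) and *Ptprn*, a membrane protein of these vesicles, with 0.42 (adjusted p = 0.00146). All these lists were chosen with results of these data known.

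More markers of sensory neurons fell than rose. Of 19 on the array, 2 rose and 11 fell at day 2, and 3 rose and 10 fell at day 5, with medians of -0.39 and -0.43, which is below the medians of the members. Their mean log2 intensity was 12.56 to 12.74 in WT control DRGs, 12.23 to 12.48 at day 2 and 12.35 to 12.43 at day 5, and 12.68 to 12.82, 12.15 to 12.50 and 12.30 to 12.45 in KO mice. All 19 were well above background in all samples. *Scn10a*, a sodium channel of nociceptors, was lowest at day 5 with -1.14, and *Ina*, *Elavl3* and *Tubb3* rose. Satellite glia markers had a median of -0.21 at day 2 and -0.0020 at day 5. Schwann cell markers had 0.42 and 0.14, those of endothelium and fibroblasts -0.10 and 0.17, and those of skeletal muscle 0.44 and 0.67 with none past the threshold. The part of these cells in the changes of the members was not tested.

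The second comparison asked whether loss of NFIL3 changed the genes or their response. In WT mice alone 14 members passed at day 2 and 17 at day 5, where 11.2% and 13.9% of gene names did. In KO mice 12 and 17 passed, against 11.9% and 12.8%. These shares are over all gene names, which lie on bright probes less often than the members. Without KO control replicate 4 the WT counts were 13 and 17 and the KO counts 11 and 16, with *Sv2a* the KO call lost at both days. All 21 members called at day 2 and all 28 called at day 5 had the same direction in both genotypes. They were called on the mean of both genotypes, which favours a shared direction and small gaps. Among these called members the median gap between the KO and the WT change was 0.08 at both days, and the largest was -0.28 for *Syt16* at day 5. Members not called could differ more, as *Syt1* did with 0.36 at day 2 and 0.34 at day 5. Calls in one and not the other are not a difference between them.

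**Figure D4:**
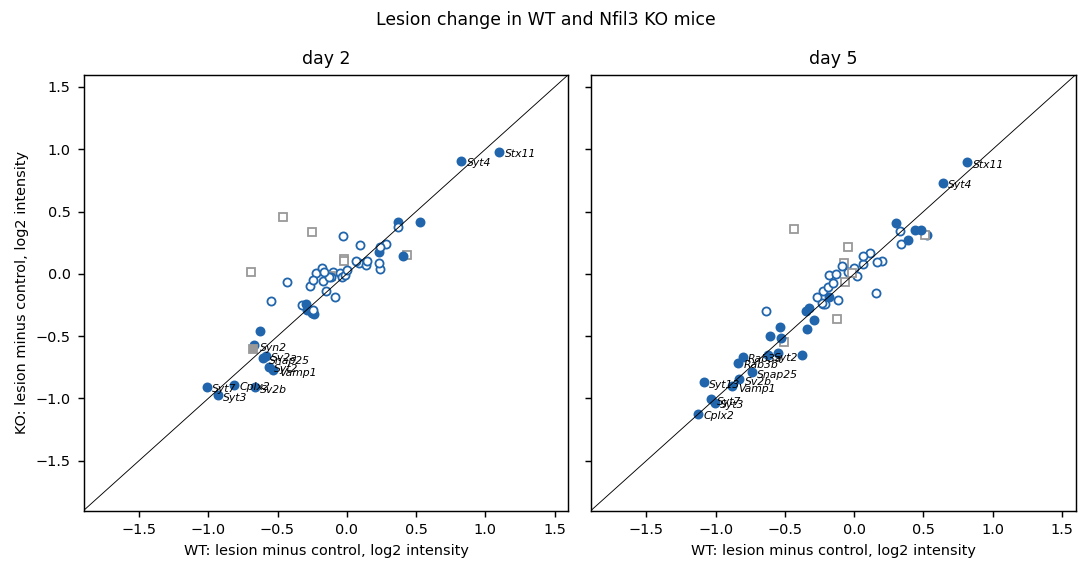
Lesion minus control in log2 intensity in WT (horizontal) and KO mice (vertical) for the 58 members at day 2 and day 5, with the line of equal change. Filled points passed an adjusted p of 0.05 averaged over both genotypes, and grey squares are the 8 members not well above background in all 24 samples. The filled points, chosen on the mean of both genotypes, lie near the line, and the largest gap among them at day 5 was -0.28 for *Syt16*.

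KO minus WT itself passed for 0 of 58 members in each of control, day 2 and day 5 DRGs (limma), where 0%, 0.0146% and 0.0109% of gene names passed. The time*genotype interaction passed for 0 members and 0% of gene names. At an unadjusted p under 0.05 the count was also 0 in all 4 tests, where 1.70% to 3.86% of gene names had one, with smallest p-values of 0.187 for *Syt16* in control DRGs, 0.0665 for *Stx19* at day 2, 0.133 for *Syn2* at day 5 and 0.212 for *Vamp1* in the interaction. Over the 50 members well above background throughout, KO minus WT lay between -0.21 and 0.25 in control DRGs, -0.19 and 0.42 at day 2, and -0.45 and 0.30 at day 5, with a median standard error of 0.13. The -0.45 was *Syn1*, for which KO day 5 has no sample on slide 3, and with the slide as a block it was -0.03.

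The intervals show what these samples could resolve in the main fit. It holds no term for array or slide, so spread between arrays and slides stays in its error. Slides 1, 2 and 3 held 3, 3 and 6 WT samples and 5, 5 and 2 KO samples. For *Snap25* the 95% interval of KO minus WT was -0.26 to 0.30 in control DRGs, -0.34 to 0.23 at day 2 and -0.32 to 0.24 at day 5. For *Syt4* it was -0.21 to 0.27 at day 2 and -0.20 to 0.27 at day 5. For *Stx11* it was -0.52 to 0.19 at day 2 and -0.32 to 0.39 at day 5. For *Syt13*, with its spread between arrays, it was -0.37 to 1.21 at day 2. A p that misses the threshold does not show that the genotypes were alike, and for *Syp* the interval was -0.12 to 0.24 at day 2.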

How the data were processed

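The authors deposited Agilent Feature Extraction output (10.7.3.1) of 12 two-channel arrays on 3 slides: a foreground and background intensity per spot and channel, not normalized, with flags for outliers and for signal well above background. Samples were grouped by their titles, which number 4 replicates per group, and the methods call the replicates independent. As in the study's methods, Edwards background correction (mean foreground, median background) and quantile normalization over all 24 channels were applied in limma 3.58.1 (R 4.3.3), so both samples of an array were treated as single-color measurements. Control features and outlier spots were dropped, and log2 values of spots of a probe were averaged (41174 probes, 27398 names). lmFit and eBayes fitted 1 mean for each group, and p-values of all contrasts, adjusted by Benjamini-Hochberg over all probes, were called at 0.05. Every adjusted p given is from this fit unless another fit or a kind of array is named beside it.

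Precision is limited by 4 samples per group. The members, the genes named and the lists were chosen with earlier results of these data known. Values in every sample are given for 13 core genes and for the 4 highest and 4 lowest changes called at day 5 on probes above background in at least 3 of 4 samples of a group, pathway lists name the 2 highest and 2 lowest, and *Rab3b* and *Rab3c* were added after their values were seen. Probe positions are mm9, and promoters are RefSeq GRCm38.p6. Scripts were tested on simulated data. Alternatives were no or normexp background correction (offset 50), processed signals at the 75th percentile, the foreground median, loess with Aquantile, outlier spots kept, and only probes that exceeded background in 4 or more samples (29805). Others averaged the probes of a gene, counted any probe, added dye, slide, array, array partner or replicate number to the fit, left out each sample, or, added after seeing the data, used each kind of array alone. One member is counted but not reported by name here.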

Additional observations from a re-analysis of the deposited data

Results flagged for a closer look

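In 126 groups of 4 samples (21 genes given in full, 6 groups each), 8 single samples stood apart from the other 3. Chance marks about 1 in 20 such groups. *Snap25* was low in KO day 2 replicate 1 (13.39, the others from 13.78 to 13.81), and *Syt1* was low in WT control replicate 3 (12.17, the others from 12.75 to 12.80). *Sv2b* was high in KO control replicate 1 (11.44, the others from 11.18 to 11.22). *Rab3a* was high in WT day 5 replicate 3 (14.04, the others from 13.73 to 13.77), and *Cplx2* was high in WT control replicate 3 (13.47, the others from 13.20 to 13.24). *Syn1* was high in KO control replicate 2 (12.20) and in KO day 2 replicate 4 (12.36), the only samples of their groups on slide 3. *Rab3c* was low in KO day 5 replicate 2 (8.58, the others from 8.67 to 8.69), which is still above all control and day 2 samples.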

How the results depend on the processing

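No called member reversed its direction under any alternative. Over 39 alternatives, 739 of 819 single calls at day 2 and 1051 of 1092 at day 5 were kept. Fits on 12 samples, added after seeing the data, changed most. On arrays with 2 samples of the same day alone, 14 members passed at day 5 (9.85% of gene names), 0 for day 5 minus day 2, 6 in WT at day 2, 2 in WT at day 5 and 3 in KO at day 5. On the other arrays, 2 passed at day 2 (3.43% of gene names), 18 at day 5 (10.75%), 5 for day 5 minus day 2, 0 in WT and 0 in KO at day 2, 3 in WT at day 5 and 2 in KO at day 5. These fits have fewer samples. For day 5 minus day 2, 5 passed with normexp, 5 without background correction, 5 with the slide as a block, 4 with processed signals, 4 with probes averaged and 4 with the array as a random block. Leaving out 1 sample at a time gave 17 to 22 calls at day 2, 27 to 29 at day 5, 2 to 4 between the days, 9 to 15 in WT at day 2, 13 to 23 in WT at day 5, 9 to 16 in KO at day 2 and 12 to 19 in KO at day 5. Changes that did not pass turned sign in some fits, and the cause was not tested. *Syn1* had -0.057 at day 2 with probes averaged, and at day 5 -0.00032 with normexp, -0.00064 without background correction, -0.0075 with processed signals, -0.051 with probes averaged, -0.29 on same-day arrays and -0.091 to 0.10 with 1 sample left out. *Vamp2* at day 2 had -0.018 with the slide as a block, -0.092 on same-day arrays and -0.027 to 0.059 with 1 sample left out. On the other arrays *Snap23* had -0.0011, *Syt1* 0.14 and *Syt13* 0.32 at day 2, and *Sv2c* -0.12 at day 5.

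Samples that share a replicate number deviated from their group means with correlations of -0.064 to 0.208 over 60 pairs. For 11 of 24 samples the most correlated sample of another group had the same number. Control DRGs came from the non-injured side, and the titles do not say which samples share a mouse. The numbers were not taken to pair samples. With the replicate block 19 members passed at day 2, 30 at day 5 and 2 between the days. Members near background, such as *Sv2c*, are limited by signal.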
